A study of Mus musculus with 4 samples.

Results

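Rorb-positive intratelencephalic (IT) neurons of the mouse prefrontal cortex (PFC) were selected from the counts of single cells by the transcripts that each cell carried. A cell was a member when it held at least 1 unique molecular identifier (UMI, a tag that marks a single captured RNA molecule) of Neurod2 or Neurod6, fewer than 1 UMI of Gad1 and Gad2 per 10000 UMIs, at least 1 UMI of Rorb per 10000, and no UMI of Fezf2, Eomes or Foxp2. Members numbered 2041 of the 59918 cells that had 1000 or more UMIs and genes and no more than 15% of UMIs from mitochondrial genes. By age, 548, 571, 391 and 531 of 11545, 19014, 15272 and 14087 cells were members, from P1 over P4 and P10 to adult. The 8 genes of this rule chose the cells, so their levels describe the choice and are not findings.

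The study captured dissociated PFC of C57BL/6J mice of 4 ages, P1, P4, P10 and adult (P84), on the BD Rhapsody system, which reads the 3′ ends of RNA from single cells. The mice carried no transgene or treatment named in the sources, and the tissue was held in actinomycin D, a blocker of transcription, during dissection. All mice were female according to the methods, with 2 per age. Each age has 1 library, in which the cells were not traced to their mouse here, and thus counts as 1 sample. Differences between ages therefore lack replicates, and no p-value is given.

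Excitatory IT neurons send their axons within the cortex and to the striatum, and they differ by layer in their genes and partners. Rorb encodes a nuclear receptor of the retinoid-related orphan receptor (ROR) family, and in sensory cortex it marks layer 4 (L4) neurons, the main target of thalamic axons, and takes part in their clustering into barrels. The PFC of rodents has no clear granular L4, and Rorb marks IT neurons at the border of L4 and L5 there.

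The rule also admitted cells that carried the markers of astrocytes. Of the 2041 members, 684 held at least 5 UMIs of Aqp4 (a water channel), Slc1a3 (a glutamate transporter), Gja1 (connexin 43) and Aldoc (a glycolytic enzyme) together per 10000. They made up 9.85% (7.49 to 12.7) of the P1 members, 32.7% (28.9 to 36.8) of those of P4, 65.7% (60.8 to 70.4) of those of P10 and 35.0% (31.0 to 39.3) of the adult ones, with exact binomial 95% intervals in brackets. All intervals here cover counting error only. The remaining members were 1277 cells in which each of 6 lists of non-neuronal markers (astrocyte, oligodendrocyte, oligodendrocyte precursor, microglia, endothelial and progenitor) stayed under 5 UMIs per 10000, and 80 cells over that limit for another list only. The 1277 cells, called marker-low Rorb cells below, numbered 481, 363, 116 and 317 at P1, P4, P10 and in adult, which is the order of every list of values that follows. This division was chosen after the astrocyte markers had been seen. Values are therefore given for all members and for the marker-low Rorb cells.

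**Figure D1:**
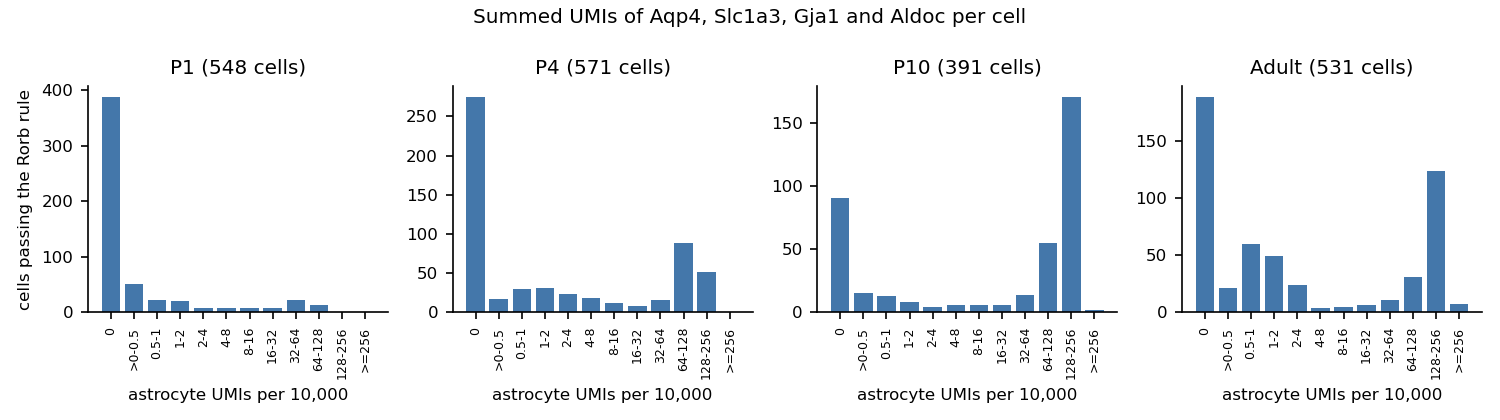
Number of cells that passed the Rorb rule (vertical axis) by their summed UMIs of Aqp4, Slc1a3, Gja1 and Aldoc per 10000 UMIs (horizontal axis, in bins that widen to the right), in each of the 4 libraries. The counts fall into a group at or near 0 and a group far above the limit of 5, and few cells lie between them.

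The astrocyte-marker-high members stood far from the limit. Their median was 46.9, 104, 148 and 164 UMIs of the astrocyte list per 10000, against a median of 0 in the marker-low Rorb cells at every age, and 11, 25, 8 and 11 members lay between 3 and 8. They were shallower than the marker-low Rorb cells from P4 on, with a median of 21792, 5482, 4560 and 3608 UMIs per cell against 24393, 14898, 20629 and 16893. Free RNA in the suspension can give UMIs of Neurod genes in any cell. Among microglia, which are not known to transcribe Neurod genes and were defined by at least 20 UMIs of 5 microglial genes per 10000, 54.3% (19 of 35), 63.6% (49 of 77), 41.3% (323 of 783) and 29.0% (385 of 1327) held at least 1 Neurod2 or Neurod6 UMI. Rorb itself was not at background in astrocytes. Of cells with at least 30 UMIs of the astrocyte list per 10000 and no Neurod UMI, 49.4, 35.9, 52.2 and 56.7% reached the Rorb limit of the rule, against 5.71, 1.30, 3.19 and 3.39% of microglia. Whether the astrocyte-marker-high members are single astrocytes or mixed captures was not tested. Scrublet, which marks barcodes that resemble simulated doublets, marked 4, 31, 17 and 29 of all members and 1, 13, 0 and 2 of the marker-low Rorb cells. Of all cells that passed the filter it marked 590, 1789, 1056 and 1101 (5.11, 9.41, 6.91 and 7.82%).

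The marker-low Rorb cells were checked against markers of cortical neurons. Levels are given in CPM, the UMIs of a gene summed over the cells of a group and scaled to a total of 1000000 UMIs (mitochondrial and ribosomal protein genes set aside), with exact Poisson 95% intervals in brackets. Slc17a7, the main vesicular glutamate transporter of the mature cortex, stood at 23.2, 186, 1479.7 and 2067 CPM. After thinning 8.61, 47.5, 100 and 99.4% of cells held a UMI of it, against 5.71, 17.7, 50.8 and 63.1% of microglia, and at P1 this was not above the background. Slc17a7 was highest in adult, and it was lower in the astrocyte-marker-high members at every age, with 1.70, 48.5, 344 and 854. The summed levels of the marker lists of inhibitory neurons (4 genes outside the rule), 5.56, 14.9, 6.39 and 4.85, and of L6b neurons, 2.86, 6.80, 7.76 and 4.27, were low in the marker-low Rorb cells. Those of L6 corticothalamic neurons, 395, 466, 405 and 286, and of L5 pyramidal tract neurons, 514, 481, 684 and 618, were not, and cells that met the other criteria with no Rorb UMI and few non-neuronal markers had 334, 461, 241 and 222 and 462, 400.3, 686 and 679.9. Whole-list sums for astrocytes were 19.6, 35.8, 24.2 and 56.9 in the marker-low Rorb cells, 5152, 10021, 14296 and 13192 in the astrocyte-marker-high members and 478, 1803, 5082 and 1874 over all members, and no astrocyte marker was at 0 in any group. The 5 markers of IT neurons summed to 2982, 1378, 805 and 590 in the marker-low Rorb cells. They were no lower, at 3017, 1684, 967 and 593, in the cells with no Rorb UMI named above. The astrocyte-marker-high members had 1496, 922, 575 and 588, so that this list did not set the groups apart in adult.

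The libraries also differed in other ways than age. The header of the P1 file names a later version of the BD Rhapsody pipeline than the other headers do, Enhanced beads and a library called P0, and says that intronic reads were counted. Y-linked genes summed to 109 CPM in the marker-low Rorb cells at P1 and to at most 0.582 at the other ages, although the methods name female mice only. All barcodes of a library together held 340724049, 273834131, 287594712 and 200198548 UMIs. Barcodes present in more than 1 library numbered 12 to 368 for each pair of libraries, none of them a member in both.

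Sequences before the transcription start were read for genes whose levels are described here, to show the letters in front of Rorb itself and the motif that its protein family is known to bind. RefSeq windows of 250 bases before each start (build GRCm38.p6) are printed 5′ to 3′ on the gene's strand, with capitals marking AGGTCA, the core letters recognised by ROR proteins, and CACGTG, the E-box bound by clock proteins. A match to AGGTCA on the other strand reads TGACCT here. Rorb has a window at chr19:19111197-19111446 (minus strand, 66% G or C) and another at chr19:19001118-19001367 (minus strand, 39.2% G or C), with the starts 110079 bases apart. Tenm1 (chrX:43274785-43275034, minus strand) is the one of the 15 genes named below by the largest smallest ratio whose window holds AGGTCA. Nr1d2 (chr14:18239107-18239356, minus strand) and Per1 (first start, chr11:69098699-69098948, plus strand) belong to the clock genes.
Rorb start 1: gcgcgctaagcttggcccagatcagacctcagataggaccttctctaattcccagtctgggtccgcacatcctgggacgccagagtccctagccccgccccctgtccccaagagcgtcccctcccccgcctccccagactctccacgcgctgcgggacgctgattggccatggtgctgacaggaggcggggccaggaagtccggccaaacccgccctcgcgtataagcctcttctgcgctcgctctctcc
Rorb start 2: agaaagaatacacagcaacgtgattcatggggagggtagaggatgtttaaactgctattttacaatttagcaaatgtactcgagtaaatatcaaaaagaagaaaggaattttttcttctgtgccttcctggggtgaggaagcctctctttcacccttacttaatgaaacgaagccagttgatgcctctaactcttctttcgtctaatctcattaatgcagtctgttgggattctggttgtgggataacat
Tenm1: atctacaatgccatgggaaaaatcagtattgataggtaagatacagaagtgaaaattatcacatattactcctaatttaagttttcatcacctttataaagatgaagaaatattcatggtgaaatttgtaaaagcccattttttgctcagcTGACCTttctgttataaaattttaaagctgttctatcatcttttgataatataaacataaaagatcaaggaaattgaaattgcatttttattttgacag
Nr1d2: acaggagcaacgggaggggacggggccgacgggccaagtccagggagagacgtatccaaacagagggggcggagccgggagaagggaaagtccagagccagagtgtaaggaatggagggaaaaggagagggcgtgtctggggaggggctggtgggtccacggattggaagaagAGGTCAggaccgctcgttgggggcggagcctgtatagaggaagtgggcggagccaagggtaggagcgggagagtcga
Per1: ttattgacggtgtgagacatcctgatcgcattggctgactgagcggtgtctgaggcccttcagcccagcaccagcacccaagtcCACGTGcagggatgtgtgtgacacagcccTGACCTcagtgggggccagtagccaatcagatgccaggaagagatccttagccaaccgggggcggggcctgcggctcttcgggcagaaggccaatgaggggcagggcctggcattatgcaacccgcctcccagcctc

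In these windows AGGTCA begins 99 bases before the start of Tenm1, 77 before that of Nr1d2 and 137 before that of Per1, where CACGTG begins 166 bases before it. Neither motif stands in the windows of Rorb, which says only that these letters are not in those 250 bases. Of all 32851 windows, 14.0% held AGGTCA and 6.02% held CACGTG. Of the 19 windows of 14 genes named below as higher in marker-low Rorb cells than in Rorb-zero cells, 1 held AGGTCA. Of the 8 windows of 7 genes on the list of L4 and L4/5 IT markers 1 held it, that of Plxnd1. Of the 21 windows of 16 ROR and clock genes, 4 held AGGTCA and 6 held CACGTG.

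How many cells passed the rule differed between libraries. Members were 21.5, 10.7, 12.2 and 17.9% of the 2549, 5356, 3207 and 2965 cells that met the other criteria of the rule. In marker-low cells the shares were 20.6% (19.0 to 22.3), 8.30% (7.50 to 9.16), 5.68% (4.71 to 6.77) and 15.7% (14.2 to 17.4). The share was highest in the P1 library and lowest in the P10 library, and the intervals cover the counting of cells within 1 library per age. The P1 file also counted intronic reads, and the starts of Rorb lie 110079 bases apart. Age and processing therefore cannot be told apart in the P1 share, and thinning does not remove this limit. A rule that counts UMIs moves with depth, so each cell was also thinned to 5000 UMIs, which leaves out 191, 2287, 3242 and 4311 of the cells that passed. After thinning, the shares of marker-low cells were 21.5% (20.2 to 22.8), 10.2% (9.45 to 11.03), 7.53% (6.64 to 8.49) and 15.7% (14.3 to 17.2), in the same order. The number of members at P1 was 940 after thinning against 548 before. Thinning can also take away the UMIs of Fezf2, Eomes or Foxp2 for which a cell was left out. Cells that met the other criteria numbered 4278, 6485, 3890 and 2963 after thinning, so that the thinned shares do not cover the same cells. Of the cells that met the Neurod, Gad and Rorb criteria, 1369, 823, 370 and 463 were left out for a UMI of Fezf2, a gene of subcortical projection neurons, 609, 219, 77 and 75 for one of Foxp2, a gene of L6 corticothalamic neurons, and 76, 6, 3 and 0 for one of Eomes, a gene of intermediate progenitors, and a cell can hold more than 1 of them.

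Among the marker-low Rorb cells, the median Rorb level was 1.96, 1.64, 1.59 and 2.12 UMIs per 10000 and the highest cell had 40.7, 12.2, 4.22 and 15.2. The median rested on 5, 2, 3 and 4 Rorb UMIs per cell, and 10, 107, 7 and 17 cells held a single one. The members nearest the limit had 1.001, 1.002, 1.009 and 1.0003 Rorb UMIs per 10000, and the nearest cells outside it 0.998, 0.996, 0.987 and 0.999.

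To describe what else set Rorb cells apart, members were compared within each library with Rorb-zero cells, which met every other criterion and held no Rorb UMI. Cells of a library share its processing, but the members had a median of 24162, 7949, 5649 and 12121 UMIs per cell and the Rorb-zero cells 23448, 11545, 19459 and 14654, so that depth differed over 3-fold at P10. With the rule applied to cells thinned to 5000 UMIs, 34, 65, 212 and 122 genes were called over all members and 15, 25, 94 and 92 in marker-low cells, fewer than the counts given below, and the thinned rule also chose other cells. Since a measured gene divided the cells, the ratios are descriptions. A gene was called when its levels differed at least 2-fold and the higher was at least 20 CPM. Over all members, 142 of 7934 genes were called in the P1 library (1.79%), 239 of 7799 at P4 (3.06%), 770 of 8039 at P10 (9.58%, of which 7.92% higher and 1.65% lower) and 447 of 7543 among adult cells (5.93%). The 15 genes with the largest smallest ratio over the 4 libraries included Dio2 (a deiodinase that activates thyroid hormone), Mlc1, Slc1a3, Aldoc, Aqp4 and Hepacam, all known from astrocytes. Aqp4 stood at 20.5, 171, 811 and 115 CPM over all members and at 0.168, 1.32, 3.65 and 1.55 in the marker-low Rorb cells. The astrocyte-marker-high cells had 229, 961, 2284 and 825, and Aqp4 is one of the genes that defined these groups.

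With marker-low cells on both sides, the counts were 31 of 7659 genes at P1 (0.405%, of which 0.118% higher and 0.287% lower), 58 of 7393 at P4 (0.785%, 0.419% higher and 0.365% lower), 239 of 7285 at P10 (3.28%, of which 1.7% higher and 1.58% lower) and 229 of 7109 in adult (3.22%). The split at P1 depended on the settings, with 28 genes higher and 16 lower at 2 Rorb UMIs per 10000 and 40 and 40 at 1.5-fold. That at P4 did too, with 7 genes higher and 18 lower under the rule on thinned cells and 20 and 32 without the exclusions, against 31 and 27. Fewer genes were called at P1 and P4 than at P10 and in adult. The marker-low Rorb cells held 11876075, 4558858, 2189577 and 5150496 UMIs in all, so that counting error was largest at P10. Marker-low Rorb-zero cells had a median of 23640, 12666, 22706 and 18071 UMIs per cell, close to the 24393, 14898, 20629 and 16893 of marker-low Rorb cells, and a Rorb-zero cell can hold Rorb RNA that was not captured. None of the 15 higher genes of the comparison over all members was among the 15 of this one, and 8 of the 15 lower genes were.

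Markers of L4 and L4/5 IT neurons were compared at each age over those that reached 20 CPM in one of the groups, so that the genes compared differed between ages. Of the list, 0 of 3 such genes were at least 2-fold higher in marker-low Rorb cells at P1 and 1 of 4 (Plxnd1) at P4, against 0.118% and 0.419% of all genes. In adult 5 of 7 were higher, against 1.58% of all genes. Of these, 3 (Rspo1, Thsd7a and Whrn) were under 10 CPM in Rorb-zero cells, so that reaching 20 CPM in Rorb cells made them a call. Plxnd1 was under 20 CPM in Rorb-zero cells and was also compared only through Rorb cells, while Kcnh5, at 23.7 there, was not. At P10, 3 of 5 were higher (Kcnh5, Thsd7a and Tox), against 1.7% of all genes. Of these, Kcnh5 was under 20 CPM in Rorb-zero cells and was compared only through its level in Rorb cells. Kcnh5, a voltage-gated potassium channel of the ether-a-go-go family, stood at 12.3, 16.2, 108 and 177 CPM in marker-low Rorb cells and at 11.7, 7.44, 15.99 and 23.7 in Rorb-zero cells. The levels lay close at P1 and apart at the later ages, with log2 ratios of 0.07, 1.12, 2.76 and 2.90. After thinning, 50.8% (45.1 to 56.5) of adult marker-low Rorb cells held a Kcnh5 UMI, against 9.19% (7.75 to 10.8) of Rorb-zero cells and 3.62% of microglia.

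Thsd7a, which encodes a membrane protein with thrombospondin repeats, differed through its level in the other cells. Its level was 62.6, 55.5, 63.0 and 56.1 CPM in marker-low Rorb cells and 69.1, 53.6, 28.6 and 6.45 in Rorb-zero cells. The marker-low Rorb cells kept within 55.5 and 63.0 at all 4 ages, and the Rorb-zero cells went from their highest level at P1 to their lowest in adult. Thsd7a spans 438 kb and the P1 file counted intronic reads, so that age and processing cannot be told apart in its P1 levels. Rspo1, a secreted activator of Wnt signalling, had 2, 0, 0 and 141 UMIs in all in marker-low Rorb cells, and its adult level was 27.4 (23.0 to 32.3) CPM against 4.35 (3.58 to 5.24) in Rorb-zero cells. With a count of 0 set to 3 UMIs, its level would be 0.658 CPM at P4 and 1.37 at P10, both far under the adult level. Whrn, a scaffold protein of hair cells and synapses, stood at 26.6 in adult marker-low Rorb cells and 8.36 in Rorb-zero cells. Plxnd1, a semaphorin receptor, stood at 19.1, 62.1, 34.7 and 37.9 against 11.1, 25.3, 21.0 and 14.7. Scnn1a, a sodium channel subunit used as an L4 marker in sensory cortex, did not share this pattern, with 1.09, 1.97, 1.37 and 0.971 against 1.30, 3.59, 5.01 and 3.19, and Endou, an RNA-cleaving enzyme on the same list, had no UMI in adult marker-low Rorb cells.

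Rora, the other ROR gene of the cortex and a gene of L4 neurons, is among the genes named below for being higher in marker-low Rorb cells in every library. Its level was 61.6, 42.6, 68.0 and 229 CPM against 47.0, 14.2, 13.8 and 70.8 in Rorb-zero cells, and the log2 ratios were 0.39, 1.58, 2.30 and 1.69. The gap was smallest at P1, where 1 of the cells held 88 of the 731 UMIs and without it the level was 54.4 and the log2 ratio 0.21, and at least 2-fold at P4, P10 and in adult. Rora was also carried by the astrocyte-marker-high members, at 65.4, 52.4, 134 and 203. Slc17a6, the vesicular glutamate transporter that thalamic and young cortical neurons use, was lowest in adult in both groups, with 139.9, 129.6, 102 and 48.9 against 136, 98.4, 64.4 and 11.3. The adult log2 ratio was 2.11 (1.86 to 2.36). Slc17a8, another transporter of this family, reached 66.2 (55.9 to 77.9) at P10 in marker-low Rorb cells, from 18.2 at P4, and stood at 0.582 in adult, against 0.702, 4.87, 5.07 and 1.71 in Rorb-zero cells. It was thus highest at P10 in marker-low Rorb cells, while its levels at P4 and P10 lay close in Rorb-zero cells. Slc17a8 is 1 of 4 listed markers of L5 near-projecting neurons. As a whole this list was lower in marker-low Rorb cells at every age. It summed to 23.5, 65.6, 99.1 and 64.3 CPM there and to 37.1, 73.9, 114 and 235 in Rorb-zero cells.

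The 4 markers of L6 IT neurons, Oprk1 (the kappa opioid receptor), Osr1, Sulf1 (a sulfatase) and Penk (proenkephalin), summed to 5.05, 13.6, 13.7 and 17.5 CPM in marker-low Rorb cells and to 10.4, 37.4, 83.97 and 209 in Rorb-zero cells. In adult Penk stood at 9.90 against 128.4 and Sulf1 at 1.36 against 40.8. Since the 4 genes sum to under 20 CPM in adult marker-low Rorb cells, a gene of the list could be compared there only through its level in Rorb-zero cells, and no count of calls is given. The 5 markers of L2/3 IT neurons summed to 201, 240.2, 464 and 622 CPM in marker-low Rorb cells and to 180.5, 190.1, 455 and 855 in Rorb-zero cells. Otof, a calcium sensor of vesicle release, stood at 7.18 against 28.5 in adult, while Lamp5, a membrane protein of synaptic vesicles, was close in both groups at 216 and 231.

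The 15 genes named by the largest smallest log2 ratio over the 4 libraries were Ptgfrn, Vstm2l, Cpne4, Ncam2, Tenm1, Nudt4, Tmem200a, Foxp1, Akap7, Rprm, Nrgn, Rora, Pcdh10, Mast4 and Cxxc4. Ptgfrn, a regulator of a prostaglandin receptor, had the largest, with log2 ratios of 1.02, 1.05, 2.67 and 1.997 and levels of 20.9, 34.0, 41.6 and 97.3 against 10.3, 16.4, 6.51 and 24.4. It was also high in the astrocyte-marker-high members at P1, at 156. Cpne4, a calcium-dependent membrane-binding protein, stood at 56.9, 125, 292 and 231 against 32.2, 52.3, 107 and 85.2. Foxp1, a forkhead transcription factor of cortical projection neurons, stood at 261, 364, 386 and 354 against 183, 171, 151 and 189. Cpne4 was at least 1.5-fold higher in marker-low Rorb cells in all 4 libraries, and Foxp1 was nearest at P1. Rprm, a cell cycle regulator that also marks L6 corticothalamic neurons, stood at 124, 313, 244 and 39.0 against 81.1, 231, 95.9 and 26.2.

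**Figure D2:**
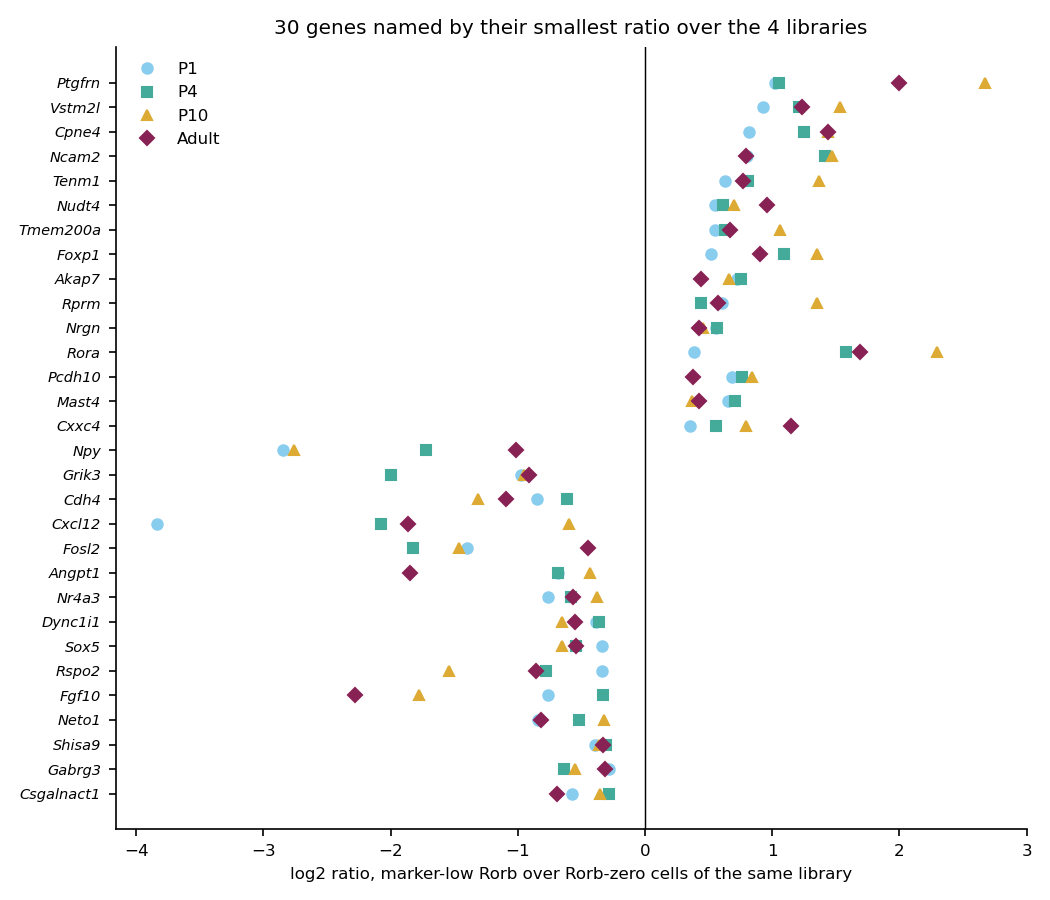
Log2 ratio of CPM in marker-low Rorb cells over Rorb-zero cells of the same library (horizontal axis) for 15 genes named as higher and 15 named as lower (vertical axis), with 1 symbol per library. The symbols of a gene lie on 1 side of 0 because the genes were named by that property, and the distance between symbols shows how the ratio moved with age.

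Ncam2, a neural cell adhesion molecule, stood at 91.8, 147, 322 and 429 against 52.6, 54.9, 116 and 247, Tenm1, a teneurin that binds latrophilins across the synapse, at 115, 172, 335 and 187 against 74.9, 98.5, 129.6 and 109, and the protocadherin Pcdh10 at 238, 367, 664 and 803 against 148, 217, 370.1 and 617. The direction of these 3 at each age follows from how the 15 were chosen. At P10, 9 of 32 tested genes of the list of cadherins and other adhesion genes were at least 2-fold higher and 4 lower, with a median of 0.42 against -0.03 for all genes. Cdh8 stood at 486 against 226 and Cdh20 at 46.6 against 8.85, while Cdh13 was the reverse, at 309 against 685. Cdh20 was under 10 CPM in Rorb-zero cells, so that reaching 20 CPM in Rorb cells made it a call. The counts of 9 and 4 genes stand against 1.7% of all genes higher and 1.58% lower. In adult, 1 of 33 was higher (Cdh20) and 4 were lower (Cdh4, Cdh9, Cdh13 and Pcdh8), against 1.58% and 1.65% of all genes, so that the count of higher genes was near that share. Cdh20 was again compared only through its level in Rorb cells.

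The 15 lower genes were Npy, Grik3, Cdh4, Cxcl12, Fosl2, Angpt1, Nr4a3, Dync1i1, Sox5, Rspo2, Fgf10, Neto1, Shisa9, Gabrg3 and Csgalnact1. Npy, the peptide neuropeptide Y, had the largest smallest ratio over the 4 libraries, with 25.6, 98.1, 15.5 and 21.0 CPM in marker-low Rorb cells and 184, 324, 105 and 42.2 in Rorb-zero cells. Fgf10, a growth factor, stood at 30.0, 33.3, 14.2 and 8.15 against 50.9, 41.9, 48.6 and 39.6. By log2 ratio the gap of Fgf10 was largest in adult, at -2.28 against -1.78 at P10. Bcl11a, a zinc-finger transcription factor, was outside the 15 but at least 2-fold lower at P10 and in adult, at 408, 154, 76.3 and 58.6 against 476, 303, 172 and 122.

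A narrower comparison was made with 411, 776, 515 and 490 marker-low cells that held no Rorb UMI and at least 1 UMI per 10000 of Cux2, a homeobox gene of upper-layer neurons. At P1, 61 of 7650 genes were at least 2-fold apart (0.797%), and in adult 298 of 7131 (4.18%). Of the 15 genes with the largest smallest ratio here, 8 were also named against Rorb-zero cells, and of the 15 lower genes 2 were (Fgf10 and Rspo2). Cux2 itself was not left out. It is 1 of the 15 lower genes and of the genes apart at P1 and in adult, which follows from the choice of cells. Ncam2 had log2 ratios of 2.02, 1.91, 1.77 and 1.18, Cpne4 of 1.62, 1.88, 1.13 and 1.18 and Rora of 0.72, 1.006, 1.797 and 1.71. Each was at least 2-fold higher at P4, P10 and in adult, and Ncam2 and Cpne4 also at P1. That of Rora at P4 was under 2-fold without the 1 cell with most Rora UMIs (9 of 194), at 0.94. Hs3st2, an enzyme that modifies heparan sulfate, was named only here, at 30.6, 61.2, 119 and 117 against 15.7, 26.3, 58.1 and 37.9. Npy, lower against the Rorb-zero cells, stood at 25.6, 98.1, 15.5 and 21.0 against 21.6, 21.8, 8.69 and 20.5 in the Cux2 cells. At P1, 1 cell held 175 of the 304 Npy UMIs of marker-low Rorb cells, and without it the level was 10.9 and the log2 ratio -0.99 in place of 0.24. Grik3 and Fosl2, also named as lower against Rorb-zero cells, were not lower throughout here. Their log2 ratios were -0.12, 0.31, 2.08 and 2.08 for Grik3 and 1.62, 1.68, 0.09 and -0.37 for Fosl2. In marker-low Rorb cells Grik3 was under 20 CPM before adult and Fosl2 at P1 and P4. Mdga1, an adhesion protein of upper-layer neurons, was lower, at 58.1, 61.9, 34.7 and 2.14 against 101, 124, 80.6 and 22.4.

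**Figure D3:**
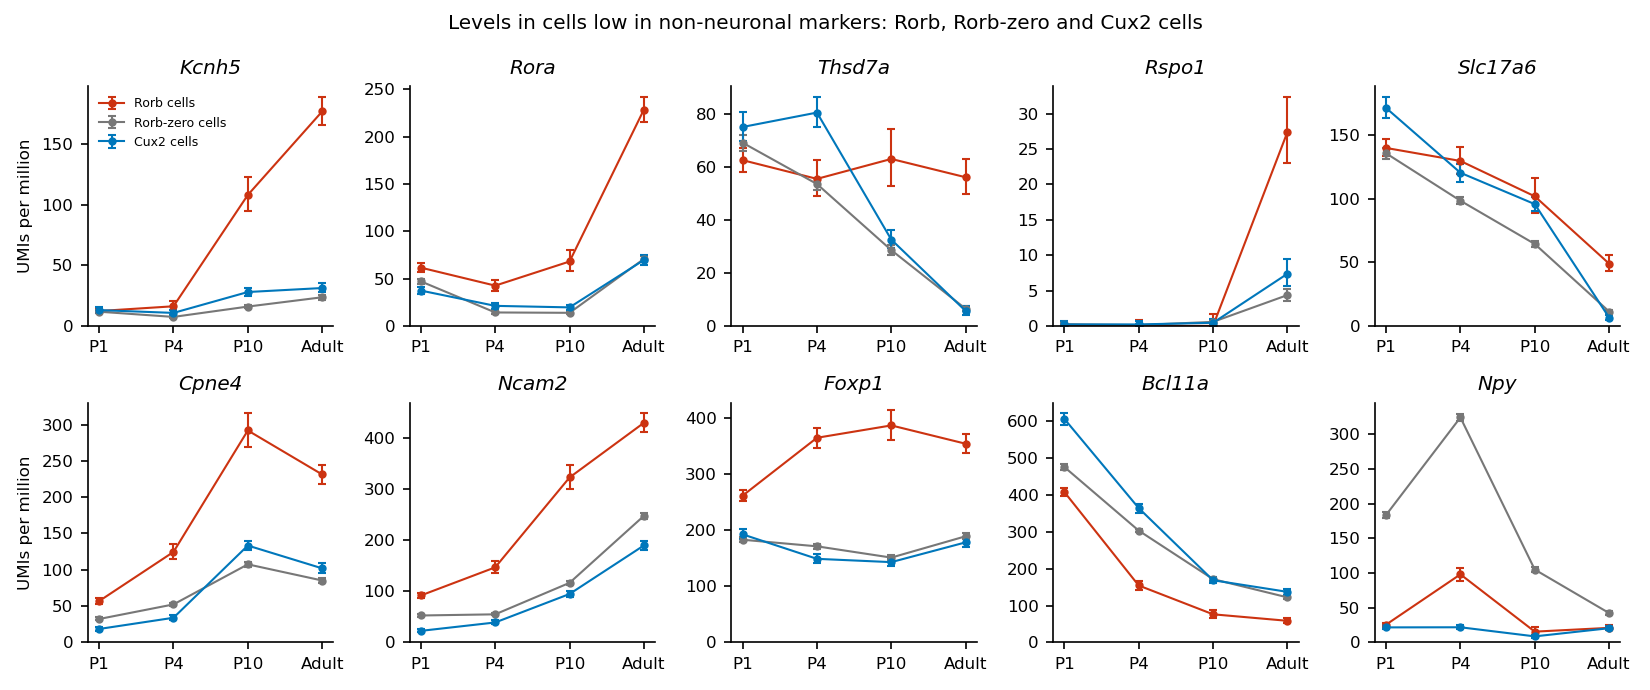
CPM (vertical axes, from 0) of 10 genes at the 4 ages in marker-low Rorb cells, Rorb-zero cells and Cux2 cells without Rorb, with bars for exact Poisson 95% intervals (counting error only). Kcnh5 reaches 177 in adult Rorb cells and at most 31.3 in the other cells, Thsd7a stays between 55.5 and 63.0 in Rorb cells, and Npy is highest in Rorb-zero cells.

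Genes whose levels followed Rorb cell by cell were sought by Pearson correlation of log-transformed levels within each library, as a description. Over 2330, 4371, 2043 and 2016 marker-low cells, the highest means over the 4 libraries belonged to AI593442 (0.29), Vstm2l (0.28), Kcnh5 (0.27), Foxp1 (0.25), Grm2, Rgs4, Cpne4, Atp1b2, Camk4 and Ptgfrn (0.23). Kcnh5 moved with age, from -0.01 at P1 and 0.08 at P4 to 0.45 at P10 and 0.55 in adult. Grm2, a metabotropic glutamate receptor, went from 0.04 to 0.45 over the same ages. The coefficients share library and depth, and among these 10 genes the highest at P4 was that of Foxp1 (0.242), close to that of Vstm2l (0.239). Without the limit on non-neuronal markers, 9 of the 10 genes were replaced, and Slc1a2, Aqp4 and Slc1a3 stood after Atp1b2 with means of 0.34, 0.33 and 0.33.

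The members were also compared between consecutive ages. Over all members, 14.3% (6.56% higher and 7.7% lower) of 8288 genes were at least 2-fold apart between P1 and P4, 15.5% (9.9% higher and 5.63% lower) of 8259 between P4 and P10, and 18.4% (6.85% higher and 11.5% lower) of 8134 between P10 and adult. Scaling by the median of ratios, which shifted the last of these steps by -0.12 (log2), gave 731 genes higher and 789 lower there, against 557 and 938. In marker-low Rorb cells, 462 genes were higher and 766 lower at P4 than at P1 (5.81% and 9.63% of 7957), 718 and 694 at P10 than at P4 (9.35% and 9.04% of 7680), and 576 and 598 in adult than at P10 (7.71% and 8.01% of 7468). Median-of-ratios scaling gave 818 higher and 584 lower in these cells from P4 to P10 and 657 and 534 from P10 to adult. Of the calls as given, 134 of the higher and 142 of the lower genes from P4 to P10 and 125 and 129 from P10 to adult had under 10 CPM at the age of the lower level, so that reaching 20 CPM at the other made them a call. The median log2 ratio of all tested genes lay at -0.07, -0.08 and -0.07.

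The step from P1 to P4 moved with the length of genes. Of genes that span over 300 kb, 41.4% were at least 2-fold lower at P4 (median -0.71), against 3.79% of genes under 10 kb (median 0.22). The same shares were 9.69% and 8.72% from P4 to P10 and 8.60% and 9.84% from P10 to adult. The step from P4 to P10 moved with length in the other direction, since 25.4% of genes over 300 kb were at least 2-fold higher at P10 (median 0.29), against 9.64% of genes under 10 kb (median -0.04). Since the P1 file came from another pipeline version that counted intronic reads, age and processing cannot be told apart from P1 to P4. The 5 largest falls, Gm49317, Sgcd, Gm21992, Gm28928 and Pakap, had 2, 1, 2, 3 and 2 UMIs at P4 after 5382, 703, 1108, 1217 and 784 at P1. The largest rises were Slc30a3, the zinc transporter of synaptic vesicles, Ddn, a postsynaptic protein, Rgs4, Egr3 and Nrgn, with log2 ratios of 6.71 (5.57 to 8.17), 4.74 (4.16 to 5.38), 4.49 (4.20 to 4.79), 4.44 (3.98 to 4.94) and 3.96 (3.88 to 4.05).

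Genes of immature neurons were lower at both later steps. Of 19 tested, 14 were at least 2-fold lower at P10 than at P4 and none higher (median -1.76), and 16 of 18 were lower in adult than at P10 (median -2.09), against 9.04% and 8.01% of all genes lower at these steps. Sox11, a transcription factor of newborn neurons, stood at 2149, 763, 92.7 and 32.04 CPM. Dcx, a microtubule protein of migrating neurons, stood at 2089, 2237, 578 and 71.8, and Gap43, a protein of growth cones, at 1966, 6652, 3303 and 525. Sox11 was thus already lower at P4, Dcx was close at P1 and P4, and Gap43 was highest at P4. Cd24a, a surface glycoprotein, went from 912 UMIs at P10 to 6 in adult (log2 ratio -8.48 (-9.93 to -7.35)), and after thinning 98.7, 100, 70.7 and 0.643% of marker-low Rorb cells held a Cd24a UMI, against 17.1, 53.2, 37.8 and 2.13% of microglia.

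Transcription factors of cortical layers and projections were lower or within 2-fold at P10, when 9.04% of all genes were at least 2-fold lower. Between P4 and P10, 11 of 28 tested were at least 2-fold lower and none higher (median -0.70), and between P10 and adult 2 were lower and 3 higher of 27, near the 8.01% and 7.71% of all genes. Meis2, a homeobox factor, stood at 1373, 612, 251 and 192 CPM. Tbr1, a T-box factor of deep layers, stood at 218, 125, 148 and 213, and Nr2f1, an orphan receptor that sets areal identity, at 87.2, 187, 204 and 216. Meis2 was lower at each later age, whereas Tbr1 had its lowest level at P4 and Nr2f1 its lowest at P1. Meis2 spans 203 kb, and for it age and processing cannot be told apart from P1 to P4.

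Many synaptic genes were higher at P10 than at P4, when 9.35% of all genes were. Of genes that span over 300 kb 25.4% were, and the lists hold such genes, among them Grin2a (428 kb) and Dlgap1 (852 kb). Of the list of presynaptic release, 8 of 21 were at least 2-fold higher and 1 lower (median 0.87). Of ionotropic glutamate receptor genes 6 of 15 were higher (median 0.57), of the postsynaptic density 10 of 26 with 1 lower (median 0.73), and of GABA-A receptor and chloride transporter genes 4 of 13 (median 0.82). Nrgn, a calmodulin-binding protein of dendritic spines, stood at 105, 1635, 7383 and 7654 CPM. Grin2a, a subunit of NMDA receptors that is added during maturation, stood at 48.8, 32.9, 185 and 538, while Grin2b, the subunit of young receptors, stood at 663, 807, 996 and 1049.6. Nrgn was already near its adult level at P10, and Grin2a was not. Slc12a5, the chloride exporter that makes GABA inhibitory, stood at 19.0, 81.2, 311 and 649. Cplx2, a complexin that regulates vesicle fusion, went the other way, at 267, 456, 109 and 139.6 in marker-low Rorb cells against 268, 389.5, 483 and 619.9 in Rorb-zero cells. The levels of Cplx2 lay close at P1 and more than 2-fold apart at P10 and in adult.

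From P10 to adult, 7.71% of all genes were higher and 8.01% lower. The synaptic lists held 1 to 3 calls in each direction, too few to set them apart from these shares. At least 2-fold higher were 2 of 21 presynaptic genes (Snap25 and Sv2b), 2 of 16 glutamate receptor genes (Gria4 and Grin2a), 2 of 26 genes of the postsynaptic density (Dlgap1 and Lrrtm3) and 2 of 13 GABA-A receptor and chloride transporter genes (Slc12a5 among them). Lower were 1 (Slc17a6), 3 (Cnih2, Grin2d and Shisa6), 1 (Dlg2) and 1 (Gabra5). Medians were 0.24, -0.06, 0.04 and 0.17. Voltage-gated channels went on, with 17 of 29 sodium and potassium channel genes higher from P4 to P10 (median 1.13) and 11 of 33 from P10 to adult (median 0.73), and none lower at either step. Of all genes over 300 kb, 25.4% were higher from P4 to P10. Of the channel genes higher in adult, 3 had under 10 CPM at P10. Kcna2, a delayed rectifier of axons, stood at 24.2, 41.9, 96.8 and 507 CPM, with its largest level in adult. Scn4b, a beta subunit of sodium channels, had 0 UMIs at P1, P4 and P10 and 40.4 (35.1 to 46.3) CPM in adult, against 18.4 in adult Rorb-zero cells.

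**Figure D4:**
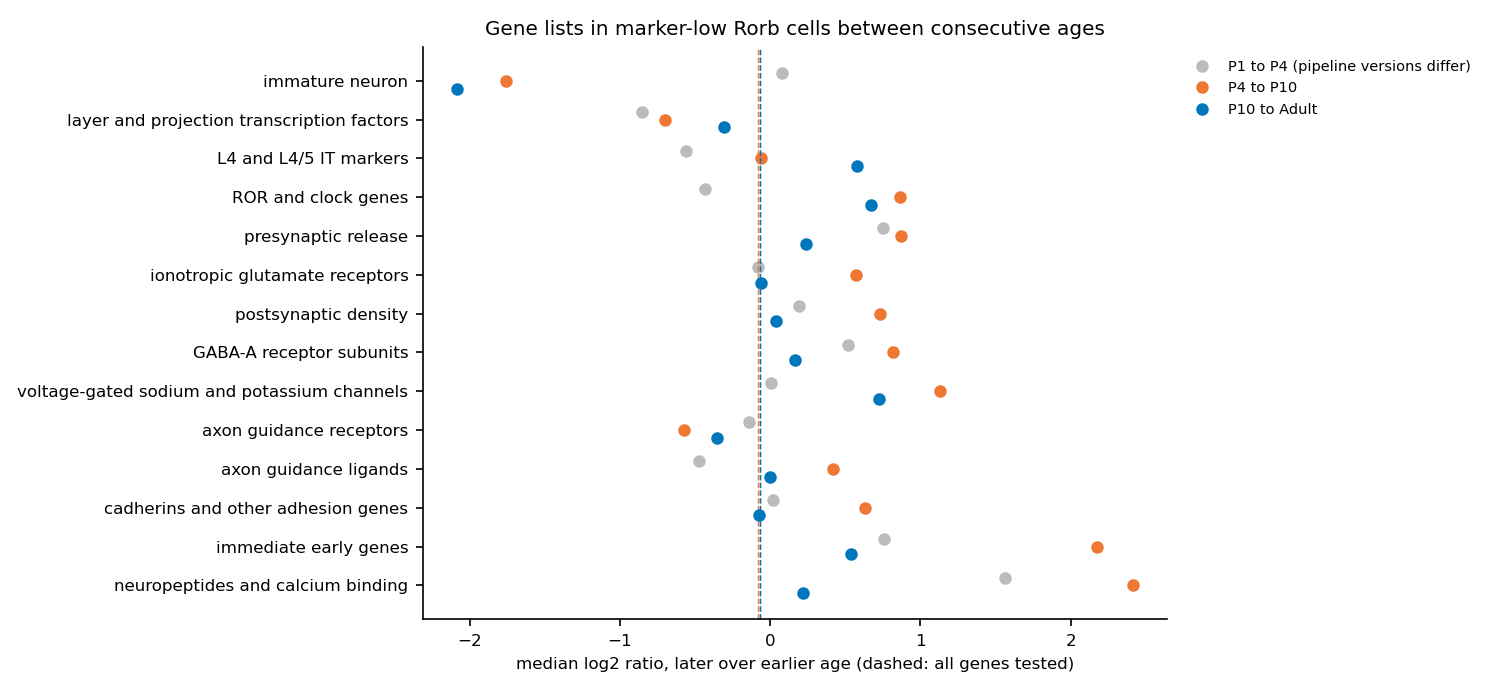
Median log2 ratio of the later over the earlier age (horizontal axis) for 14 gene lists (vertical axis) in marker-low Rorb cells, with 1 colour per step and dashed lines at the medians of all genes tested. Genes of immature neurons lie at -1.76 and -2.09 for the later steps, while immediate early genes and neuropeptides lie above 2 from P4 to P10.

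Most genes of axon guidance were within 2-fold between P4 and P10, and of all genes 9.35% were higher and 9.04% lower. Of axon guidance receptors, 4 of 23 were at least 2-fold lower at P10 than at P4 (Epha3, Nrp1, Plxnb1 and Plxnb2) and 2 higher (Epha4 and Ephb3). Of ligands, 3 of 18 were higher (Ntn4, Sema3a and Slit2) and 2 lower (Efnb1 and Sema4g), and from P10 to adult 3 of 20 were higher and 6 lower, against 7.71% and 8.01% of all genes. Epha4, a receptor of ephrins, stood at 237, 440.5, 972 and 677 CPM against 202, 290.2, 528 and 484 in Rorb-zero cells. Robo1, a receptor of Slit proteins, stood at 453, 192, 101 and 45.2. Epha4 was thus highest at P10 and Robo1 at P1. Robo1 spans 738 kb, and for it age and processing cannot be told apart from P1 to P4. Of adhesion genes 12 of 33 were higher and 5 lower from P4 to P10, and 1 and 7 of 33 from P10 to adult, when the shares of all genes were those given for the ligands. Of genes over 300 kb, 25.4% were higher from P4 to P10, and Cdh8 (392 kb) and Pcdh11x (620 kb) are of that length. Cdh8 stood at 384, 209.7, 486 and 148, Pcdh11x at 7.75, 27.2, 161 and 55.1 and Cdh20 at 9.26, 12.9, 46.6 and 21.4. These 3 had their highest level at P10, and the adult level was under the P10 level by at least 2-fold in each.

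Immediate early genes, which neurons transcribe within minutes of activity, were compared between ages. From P4 to P10, 10 of 14 tested were at least 2-fold higher and none lower (median 2.18), and from P10 to adult 5 of 16 (median 0.54), against 9.35% and 7.71% of all genes higher. Of the calls at P10, 6 had under 10 CPM at P4, so that a gene of this kind was compared only if it was higher at P10. Egr1, a zinc-finger factor, stood at 0.842, 23.5, 591 and 924 CPM, and after thinning 0.420, 10.1, 80.2 and 86.2% of marker-low Rorb cells held a UMI of it, against 5.71, 17.7, 20.1 and 31.3% of microglia, so that the Rorb cells were not above microglia at P1 and P4. Arc, a protein of postsynaptic plasticity, had 0, 7, 48 and 803 UMIs and levels of 0, 1.54, 21.9 and 156. Both had their highest level in adult. Nptx2, a pentraxin that gathers AMPA receptors, was lower in marker-low Rorb cells than in Rorb-zero cells in adult, at 54.6 (48.4 to 61.3) against 173 (168 to 178). How far dissociation set these levels was not tested.

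Among neuropeptides and calcium-binding proteins, 9 of 13 were at least 2-fold higher at P10 than at P4 and 1 lower, Npy (median 2.41), against 9.35% and 9.04% of all genes. Of those higher, 3 had under 10 CPM at P4. Adcyap1, the peptide PACAP, stood at 8.67, 29.8, 172 and 169.7 CPM against 7.02, 18.9, 107 and 67.9 in Rorb-zero cells. Pdyn, prodynorphin, stood at 0.253, 1.32, 39.3 and 3.11 against 0.736, 1.60, 90.9 and 43.7. Adcyap1 lay close in both groups at P1, where both were under 20 CPM. It was higher in marker-low Rorb cells at the later ages, with the largest gap in adult. Pdyn was lower in marker-low Rorb cells at P10 and in adult. Of ROR and clock genes, 6 of 14 were higher at P10 than at P4 (Hlf, Nr1d1, Nr1d2, Per1, Per2 and Tef; median 0.86) and 4 of 14 in adult than at P10 (Dbp, Hlf, Rora and Tef), with none lower, against 9.35% and 7.71% of all genes higher. Hlf, a PAR bZIP factor of clock output, stood at 3.12, 18.9, 148 and 673, and Nr1d1, the repressor REV-ERB alpha that competes with ROR proteins for their sites, at 13.3, 14.5, 101 and 121. Hlf and Nr1d1 were under 20 CPM at P4 and so were compared from P4 to P10 only through their P10 levels. Time of day of collection is not given in the sources used here.

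The largest single rises from P4 to P10 in marker-low Rorb cells were Inka2, Car10, Cckbr (a cholecystokinin receptor), Nrn1 (neuritin) and Lamp5, with log2 ratios of 6.49 (5.50 to 7.72), 5.93 (5.38 to 6.55), 5.65 (4.70 to 6.80), 5.35 (4.79 to 5.98) and 5.17 (4.15 to 6.41). The largest falls were Carhsp1, Stk32b, Vcan (versican, a matrix proteoglycan), Ddah2 and Mex3a, between -5.60 and -4.33. From P10 to adult, Gpr83, Igfbp6 and Cbln4 had no UMI at P10 and 567, 286 and 282 in adult. With the count of 0 at P10 set to 3 UMIs, their log2 ratios were 6.33, 5.34 and 5.32. Hapln4, a link protein of perineuronal matrix, and Glt8d2 had 2 UMIs each at P10 and log2 ratios of 6.61 (4.75 to 9.66) and 6.35 (4.48 to 9.40). The largest falls after Cd24a were Slc17a8, Tubb2b, Dpysl5 and Gpc5, with -6.83 (-9.12 to -5.25), -6.36 (-6.77 to -5.97), -5.56 (-5.99 to -5.16) and -5.29 (-6.37 to -4.37).

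Over all members, the same ranking held genes of other cells. From P4 to P10 it named Gjb6 (connexin 30) and Fam107a, known from astrocytes, and Hbb-bs, a globin, at 6.52 (5.53 to 7.74), 5.69 (4.95 to 6.54) and 5.62 (4.91 to 6.44), and from P10 to adult Ptgds, Fabp7 and Tnc. Hbb-bs stood at 22.1, 2.79, 137 and 55.7 CPM over all members and at 24.4, 2.41, 6.39 and 26.6 in marker-low Rorb cells. The marker-low Rorb cells at P10 thus lay far under the mean of all members, and the astrocyte-marker-high members had 1.70, 4.94, 265 and 24.0. Over all members the lists had medians of -1.57 and -1.81 for genes of immature neurons at the later steps, 0.92 and 1.03 for voltage-gated channels and 1.81 and 0.68 for immediate early genes. Within each library, astrocyte-marker-high and marker-low members differed at least 2-fold in 35.8, 39.5, 40.7 and 30.8% of genes, where astrocyte markers chose the groups.

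**Figure D5:**
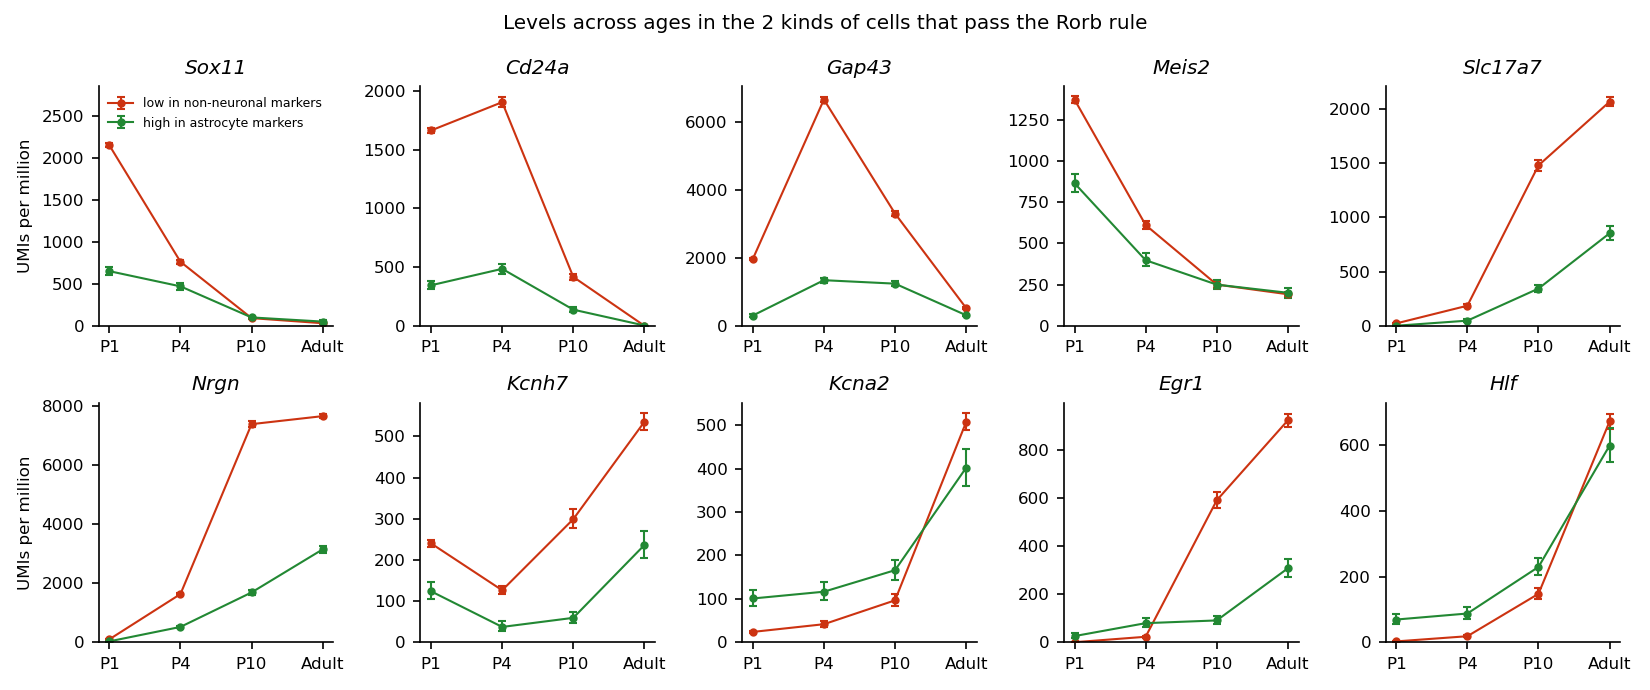
CPM (vertical axes, from 0) of 10 genes at the 4 ages in members low in non-neuronal markers and in members high in astrocyte markers, with bars for exact Poisson 95% intervals (counting error only). Slc17a7 is lower in the cells high in astrocyte markers at every age.

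Per-cell values of a few genes in marker-low Rorb cells follow, all of which also vary through sampling of few UMIs. Cux2 stood at 94.98, 73.7, 113 and 99.6 CPM, and after thinning 29.2, 23.0, 42.2 and 36.3% of cells held a Cux2 UMI, against 5.71, 4.84, 5.11 and 7.68% of microglia. Etv1, a factor of L5 IT neurons, was held by 19.5, 11.7, 3.45 and 19.9% of thinned cells and by 13.6, 9.00, 5.93 and 18.7% of Rorb-zero cells. Microglia held it in 20, 24.2, 27.3 and 38.0%, at P10 and in adult well above both kinds of neurons, so they give no background for this gene. Rora per cell in adult had quartiles of 0.642, 1.64 and 3.40 UMIs per 10000, and Kcnh5 of 0.427, 1.34 and 2.67. At P1 the median of Rora was 0 and 1 cell reached 77.8. Nrgn per cell ran from 1.10 (the tenth percentile) to 32.8 (the ninetieth) UMIs per 10000 at P4, and from 26.6 to 108 at P10, and these ranges overlapped only at their ends. Pld5, a marker of L5 IT neurons, stood at 19.0 CPM in adult marker-low Rorb cells and 2.10 in Rorb-zero cells, although under the 20 CPM that a call required. The 4 markers of L5 IT neurons together, Pld5 and Etv1 among them, summed to 96.7, 77.4, 111 and 155 CPM in marker-low Rorb cells. In Rorb-zero cells they summed to 68.6, 58.4, 83.1 and 113.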

How the data were processed

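Single-cell RNA of the PFC was taken from 1 library per age (P1, P4, P10 and adult). The deposited values are raw UMI counts by gene and barcode that the authors made with the BD Rhapsody pipeline on GRCm38 with GENCODE vM19 (build mm10 per the labels). Headers name version 1.11 for P1 and 1.8 for the other ages, whereas the methods name version 1.11 throughout. DoubletFinder and the removal of clusters by hand followed deposit and were not repeated. All values were checked to be whole numbers.

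Kept cells had 1000 UMIs and 1000 genes or more and no more than 15% of mitochondrial UMIs, as in the methods. UMIs were summed per group of cells and scaled to a total of 1000000 (CPM), with mitochondrial and ribosomal protein genes set aside. Genes with at least 20 CPM in the higher group were compared, and a 2-fold difference was a call. A count of 0 was set to 3 UMIs, which makes the ratio a bound. Intervals at 95% are exact (Poisson, conditional binomial, Clopper-Pearson). No test between ages or groups of cells was made. Thinning drew 5000 UMIs per cell (seed 1). Scrublet ran in scanpy 1.11.5 at an expected rate of 0.06, and marked cells were kept. Python 3.11.15, numpy 2.4.6, scipy 1.17.1 and pandas 2.3.3 were used, and the ratios were tested on simulated data. Spans came from GENCODE M21 and promoter windows from RefSeq (GRCm38.p6), with 250 of their 300 bases searched.

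Members and gene lists were chosen with earlier results of these data known. Named genes were those of 14 lists, the 5 largest rises and falls of each step among genes with at least 50 CPM in the higher age that both files list, the 15 genes in each direction with the largest smallest ratio to Rorb-zero cells over the 4 libraries (at least 20 CPM in the higher group in every library), and the 10 genes most correlated with Rorb per cell. Genes of the rule were left out of the rankings, as were mitochondrial, ribosomal protein and sex-linked marker genes from those of the steps. Alternatives changed the rule, the depth, the filter, the scaling, the fold and the limit on non-neuronal markers. Some genes of the lists are not reported here by name.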

Additional observations from a re-analysis of the deposited data

How the results depend on the processing

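No paired analysis was possible because each age has 1 library and no result comes from a test, and for the same reason no replicate could be left out. All values here are numbers of cells or of genes at least 2-fold apart, from P1 to adult by age unless named. With Rorb at 2 per 10000 in place of 1, members numbered 276, 245, 248 and 353 and marker-low Rorb cells 236, 121, 29 and 167, and the genes apart from Rorb-zero cells 508 (P4) and 1587 (P10) over all members and 121, 521 and 354 (P4, P10, adult) in marker-low cells. With at least 3 Rorb UMIs, members numbered 180, 141 and 294 from P4 on and marker-low Rorb cells 153 at P4, with 149 (P4) and 379 (P10) genes apart over all members and 132 (P4) in marker-low cells. The rule on thinned cells gave 940 members at P1 and 875, 595 and 244 marker-low Rorb cells at P1, P4 and P10, with 34, 65, 212 and 122 genes apart over all members and 15, 25, 94 and 92 in marker-low cells. Without the exclusion of Fezf2, Eomes and Foxp2, members numbered 2048, 1437, 784 and 1014 and marker-low Rorb cells 1848, 1113, 392 and 673. The same change on both sides, added for genes after seeing the data, gave 86, 107, 402 and 291 genes apart from Rorb-zero cells over all members and 65 in marker-low cells at P1 (30 higher and 35 lower), and 4 list medians at least 2-fold from 0 over all members, against 7. With the mean of cells in place of the sum, 388, 1211 and 865 genes were apart over all members from P4 on.

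At a minimum of 100 CPM, 406, 487 and 527 genes were apart between ages and 17, 53, 216 and 123 from Rorb-zero cells over all members, and 405, 552 and 416 and 3, 9, 69 and 64 in marker-low cells. Without a minimum these were 7616, 5031 and 5632, then 5946, 7459, 8688 and 6640, and 7645, 5754 and 5504, then 5227, 7033, 8327 and 5987. At 1.5-fold they were 2895, 2824 and 3154, then 249, 497, 1498 and 881, and 2910, 2949 and 2721, then 80, 215, 637 and 585. Marker-low cells alone in place of all members, an alternative chosen after seeing the data, gave 363, 116 and 317 cells from P4 on and 31, 58, 239 and 229 genes apart from Rorb-zero cells. Counts stayed within 1.5 times under removal of the cells that Scrublet marked, a filter of 2000 UMIs, 1500 genes and 10% mitochondrial UMIs, median-of-ratios scaling, scaling to all genes and limits of 8 or 3 on non-neuronal markers. Median-of-ratios scaling gave 731 genes higher and 789 lower from P10 to adult over all members, against 557 and 938. The mean of cells gave 802 higher and 409 lower against Rorb-zero cells at P10 over all members, against 637 and 133, and 6 and 34 in marker-low cells at P1, against 9 and 22. Of 882 list medians, 876 moved little, and all 136 with a size of at least 1 kept their sign. Leaving out the 1 cell with most UMIs of a gene, as given for Rora and Npy at P1, was chosen after seeing the data. Depth limits Rorb itself, since a median of 2 to 5 UMIs per cell stands behind the marker-low Rorb cells.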

Other observations

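Cells with Rorb UMIs under the limit of 1 per 10000 that met the other criteria numbered 572, 427, 226 and 232 and entered neither the members nor the Rorb-zero cells. Their median depth was 30474, 18241, 24676 and 20518 UMIs per cell, deeper than that of the members at every age. A cell with a Rorb UMI lies under the limit only if it holds more than 10000 UMIs, so this depth follows from the rule. Members over the limit of another list of non-neuronal markers only, which entered the values of all members but neither of the other groups, numbered 13, 21, 18 and 28.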
